A study of Meleagris gallopavo with 24 samples.

Results

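Hearts of turkeys (Meleagris gallopavo) fed salinomycin (Sal) were compared with hearts of control turkeys, gene by gene, over the nuclear genome. The comparison rests on 12 of the 24 RNA-seq libraries of the series, 6 from Sal-exposed and 6 from control birds, taken by the sample titles, and the other libraries are liver. Female birds reared from 1 day of age had received Sal-free feed until the Sal-exposed group was given 21 mg Sal per kg feed in weeks 12 to 13, an estimated daily dose of 0.9 mg per kg body weight, while the control group stayed on Sal-free feed. All 12 birds were sampled in week 13, and each heart library came from a separate bird. A pen held 4 turkeys, and no source used here gives the pen of each bird. The tests take the 12 birds as independent, and a part of the pen in the group differences could not be tested.

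Sal is a polyether antibiotic given in poultry feed against coccidia, the intestinal protozoa that cause coccidiosis. It binds alkali cations and carries them across membranes, which disturbs the sodium and potassium gradients and, through sodium and calcium exchange, cell calcium. Turkeys are known to be sensitive to it, and heart and skeletal muscle are among its target tissues. Cardiac muscle cells keep steep ion gradients, draw their energy mainly from fatty acid oxidation, and sit in a matrix of collagens and laminins made largely by fibroblasts, endothelial cells and mural cells. Most cardiac muscle cells of a grown bird have left the cell cycle.

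The libraries differed in ways that touch the results. Mitochondrial genes took 48.3% to 86.9% of the counts, so all levels here are CPM, the count per 1000000 counts of nuclear genes, scaled with TMM factors, and the nuclear depth was 4229472 to 12085074 counts per library. The share was over 80% in Sal 3, Sal 4 and control 2. Levels were divided by the TMM factor of the library, 0.42 in Sal 1, 0.81 in control 3 and 0.86 in Sal 5. It was 1.09 to 1.22 in the other libraries, so the scaling raised the levels of Sal 1 most. The span trend of a library is the Spearman correlation (rho), over genes, of genomic span, introns included, with the deviation of the gene from its mean level. It was below 0 in Sal 1, 2, 5 and 6 and in control 3, with -0.39 in Sal 1 and -0.39 in Sal 5, and 0.19 to 0.31 in the other 5 controls and about 0.24 in Sal 3 and Sal 4. The mitochondrial share was 68.2 ± 14.9% against 66.9 ± 9.16% (SD, n = 6 each, exact permutation adjusted p 0.952). The span trend did not pass either, with -0.07 ± 0.28 against 0.17 ± 0.19 (SD, n = 6 each, two-sided exact permutation p 0.1299, adjusted p 0.519 over 20 measures). Principal component 1 (52.1% of the variance) set Sal 1 furthest apart, and component 2 (15.7%) Sal 3 and Sal 4. The cardiomyocyte markers, such as MYL2 and TNNT2, summed to 56097 to 313669 CPM in Sal-exposed hearts and 49605 to 119612 CPM in controls, against 17.2 to 35.96 CPM in liver controls, so the tissue matched its label.

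**Figure D1:**
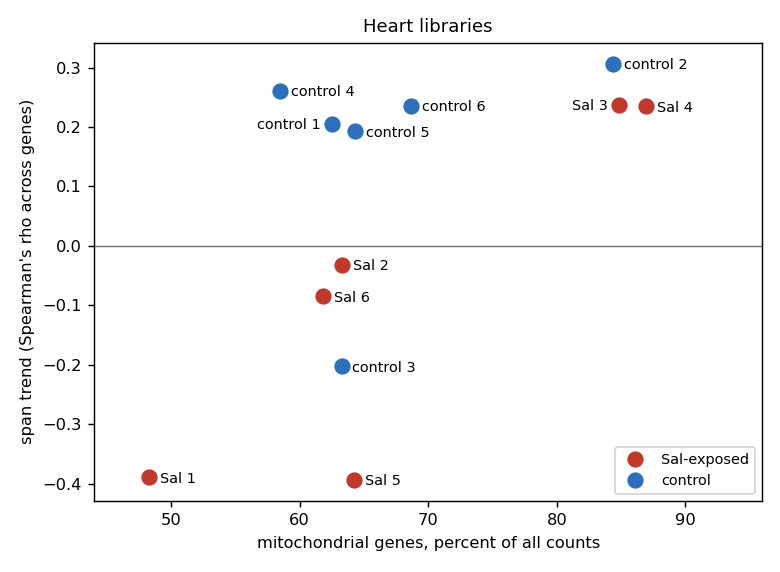
The 12 heart libraries by the share of counts from mitochondrial genes (x axis, percent) and by span trend (y axis, Spearman's rho across genes), Sal-exposed in red and control in blue. Sal 3, Sal 4 and control 2 lie over 80% on the x axis, and Sal 1, Sal 5 and control 3 have the lowest rho.

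Of 10318 nuclear genes tested with edgeR's quasi-likelihood F test, 101 were called, with an adjusted p not above 0.05 and a log2 fold change (log2FC, Sal-exposed against control) of 1 or more in size. These are 0.979% of the genes tested. Only 10 were higher in Sal-exposed hearts (0.0969%) and 91 were lower (0.882%). At the adjusted p alone 104 genes passed (1.01%). At an unadjusted p under 0.05, 873 genes were higher (8.46%) and 870 lower (8.43%). This split depended on the scaling and the model, with 185 higher and 766 lower when only library size was used, where the median log2FC of all genes was -0.21, 1106 and 797 with an offset for genomic span, and 1150 and 1616 with limma-voom. Of the 101 calls, 49 were genes of 3 lists of mitosis and cytokinesis, DNA replication, and centrosome and cilium, and all 49 were lower. The 3 lists do not hold every gene of cell division. The other 52 calls, 10 higher and 42 lower, are described here. Among them 35 carried a gene symbol and 17, all lower with log2FC of -2.92 to -1.25, only an identifier. Both groups were separate in CPM for 47 of the 52, while of all genes tested 0.853% were higher and 1.91% lower without overlap. The 52 were called on these same libraries, so the share of all genes is no baseline for the 47. The count of calls was sensitive to single libraries, with 49 calls without control 6 and 136 without Sal 3, and it rose to 468 when the mitochondrial share was a covariate and to 280 without the 3 libraries with a share over 80%. All 101 calls were among the 468, and 94 of them among the 280. With library size scaling 59 genes were called, 52 of them among the 101, and of the 10 rises GYG2, LCAT and APOA1 stayed called. With the offset for genomic span 102 were called, 82 of them shared, and HSPA2, JUN and PIM3 were the rises lost. With the span trend of each library as a covariate 119 were called, 83 of them shared, and TMPRSS12 was the rise lost.

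The genes that rose in Sal-exposed hearts included genes of glycogen and lipoprotein metabolism, immediate early genes and a chaperone. GYG2, LCAT and APOA1 had the largest rises. GYG2 (ENSMGAG00000014734, chromosome 1, 127067631 to 127078412, positions on Turkey_5.1) encodes glycogenin 2, the self-glucosylating protein that primes glycogen synthesis, in mammals mainly in liver. It had 4.76 to 21.9 CPM (median 11.4) in Sal-exposed hearts, from 38 to 187 counts per library. In 3 of the 6 control hearts it had no count, and the other 3 had 1, 5 and 6 counts, at most 0.783 CPM. The groups were far apart. Its log2FC of 4.83 (SE 0.63) depends on the prior count because of the empty controls, and the adjusted p was 0.00157. GYG2 was called in all 26 alternative fits. No other member of the glycolysis and citrate cycle list passed (1 of 49 tested, list median 0.12, against 0.01 over all genes tested).

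LCAT (ENSMGAG00000002421, chromosome 13, 10682959 to 10687197) encodes lecithin-cholesterol acyltransferase, which esterifies cholesterol on high-density lipoprotein, and APOA1 (ENSMGAG00000003169, chromosome 26, 5175929 to 5177267) the main protein of that particle and the activator of LCAT. LCAT had 70.1 to 125 CPM (median 94.04) in Sal-exposed hearts and 8.43 to 26.5 CPM (median 17.5) in controls. The ranges were separate by a wide gap. It rose by a log2FC of 2.43 (SE 0.26) with an adjusted p of 7.67e-04 and was called in all 26 alternatives. APOA1 had 2750.3 to 7815 CPM (median 4074) in Sal-exposed hearts and 834 to 1916 CPM (median 1463) in controls. These ranges were also separate, with Sal 1 the highest. The log2FC of 1.65 (SE 0.32) with an adjusted p of 0.0231 was lost without Sal 2 or 5 or control 1, 2, 4, 5 or 6 (adjusted p 0.0507 to 0.0749). Of the 29 tested members of the lipoprotein list these were the only members to pass, and the list median was -0.07. At an unadjusted p under 0.05, 5 members were higher and 2 lower, against 8.46% and 8.43% of all genes tested. The higher count was 2 without Sal 1 and 3 without control 1 or 4, and the lower count 1 without control 6, 4 without Sal 2 and 5 without Sal 6. VTN, vitronectin, a plasma and matrix protein, had 116 to 536 CPM (median 226) in Sal-exposed hearts and 47.8 to 127 CPM (median 93.97) in controls and did not pass (log2FC 1.5, SE 0.38, adjusted p 0.0825), and its model overlaps another gene model. VTN is also among the 20 hepatocyte markers, which summed to 224 to 793 CPM in Sal-exposed and 128 to 364 CPM in control hearts. Of the 15 hepatocyte markers tested the median log2FC was -0.25, with ALB at 75.3 and 105 CPM (medians, log2FC -0.37), and none of the 17 in the table was at 0 in all hearts.

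The remaining rises outside the stress genes were SYN3, TMPRSS12 and ST7. SYN3, a synapsin of synaptic vesicles, had 12.2 to 20.6 CPM (median 19.6) in Sal-exposed hearts and 3.76 to 8.38 CPM (median 6.05) in controls, and rose by a log2FC of 1.55 (SE 0.23) with an adjusted p of 0.00347 that held without any single library. TMPRSS12, annotated as a transmembrane serine protease, had 25.3 to 85.8 CPM (median 53.1) in Sal-exposed hearts and 13.4 to 25.7 CPM (median 18.9) in controls. The lowest Sal-exposed value lay just under the highest control. Its log2FC of 1.54 (SE 0.30) with an adjusted p of 0.0236 was lost without Sal 5 or 6 or control 1, 2, 4 or 6 (adjusted p 0.0549 to 0.0809). With the span trend as a covariate the log2FC was 0.90 (edgeR adjusted p 0.0495), under the threshold of 1. ST7, a membrane protein studied as a candidate tumour suppressor, had 57.9 to 90.6 CPM (median 72.1) in Sal-exposed hearts and 24.8 to 42.4 CPM (median 33.5) in controls, with separate ranges and a log2FC of 1.07 (SE 0.18) with an adjusted p of 0.00931. It passed the adjusted p without any single library, but the log2FC was just under 1 without Sal 4 or control 1.

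**Figure D2:**
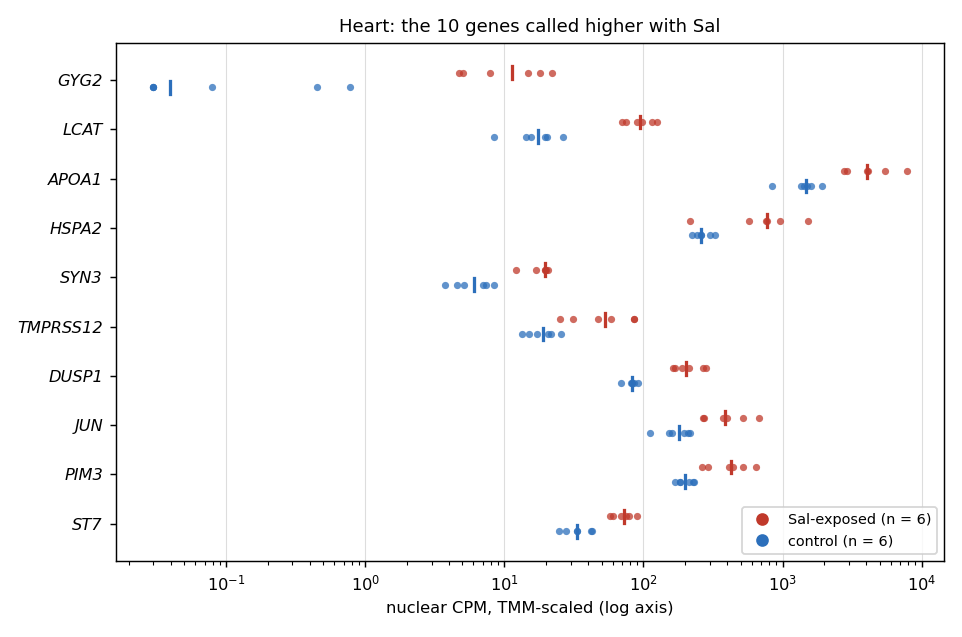
Levels of the 10 genes called higher, in TMM-scaled nuclear CPM on a log axis, with 1 point per library, Sal-exposed in red and control in blue, and a bar at each group's median. Control hearts with no GYG2 count are drawn at the left edge. The ranges of the groups are separate for 8 of the 10 genes, with HSPA2 and TMPRSS12 the exceptions.

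Immediate early genes are transcribed within minutes of a stimulus and encode mostly transcription factors and phosphatases. DUSP1, JUN and PIM3 rose in Sal-exposed hearts, 3 of the 37 list members tested, against 0.107% of all genes tested at the adjusted p alone. All gene lists here were chosen with earlier results of these data known, so shares over all genes are no independent baseline for them. DUSP1 (ENSMGAG00000003557, chromosome 15, 8282043 to 8283691), the phosphatase that switches off the stress kinases p38 and JNK, had 162 to 280.0 CPM (median 201) in Sal-exposed hearts and 68.9 to 91.2 CPM (median 82.4) in controls. The ranges were separate and the log2FC of 1.37 (SE 0.18) with an adjusted p of 0.00157 held without any single library. JUN (ENSMGAG00000011531, chromosome 10, 20960071 to 20961682), a subunit of the AP-1 transcription factor, had 269 to 673 CPM (median 387) in Sal-exposed hearts and 111 to 215 CPM (median 179) in controls, with separate ranges. Its log2FC of 1.26 (SE 0.26) with an adjusted p of 0.0313 was lost without Sal 2 or 6 or control 1, 3, 4, 5 or 6 (adjusted p 0.0622 to 0.09699). PIM3 (ENSMGAG00000007839, chromosome 1, 18365204 to 18369610), a serine/threonine kinase linked to cell survival, had 264 to 643 CPM (median 427) in Sal-exposed hearts and 169 to 230.3 CPM (median 198) in controls, with separate ranges. Its log2FC of 1.09 (SE 0.23) with an adjusted p of 0.0337 was lost without Sal 2 or 6 or control 1, 2, 3, 4, 5 or 6 (adjusted p 0.06002 to 0.108). Of the list, 9 members were higher and 0 lower at an unadjusted p under 0.05, against 8.46% and 8.43% of all genes tested. A positive log2FC was found for 31 of 37. Of the 9, the 6 that did not pass the adjusted p were CCN1, KLF2, ID2, BTG1, CEBPB and KLF10, with log2FC of 0.47 to 0.83. KLF2, an endothelial transcription factor responsive to flow, had 295 to 503 CPM (median 408) in Sal-exposed hearts and 185 to 305 CPM (median 259) in controls, an overlap of 1 Sal-exposed value with the controls. The list median was 0.34 and stayed between 0.28 and 0.41 without any single library. It was 0.38 with the span trend as a covariate, a fit in which 6 members passed, and 0.28 with the offset for genomic span, where DUSP1 alone passed, 5 were higher at an unadjusted p under 0.05, and JUN and PIM3 had adjusted p values of 0.125 and 0.0866. With library size scaling the list median was 0.12, against -0.21 over all genes tested, no member passed and 3 were higher. Over all genes tested 27 passed higher with the span trend as a covariate, 21 with the offset and 3 with library size scaling.

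Chaperones fold and refold proteins and are induced when proteins misfold. Among the 43 chaperone genes tested HSPA2 passed and rose in Sal-exposed hearts, and 14 were higher and 1 lower at an unadjusted p under 0.05, against 8.46% and 8.43% of all genes. The 14 became 9 without control 5 or control 6, while without control 6 the higher count over all genes fell from 873 to 582. The chaperone list too was chosen with earlier results known, so the share of all genes is no independent baseline. HSPA2 (ENSMGAG00000015391, chromosome 5, 52105846 to 52108751) is a member of the HSP70 family. It had 216 to 1534 CPM (median 767) in Sal-exposed hearts and 225 to 325 CPM (median 258) in controls. In all, 5 of the Sal-exposed hearts were above every control, and Sal 1, at 216 CPM, was below all of them. Its log2FC of 1.58 (SE 0.35) with an adjusted p of 0.0496 was at the threshold and was lost without any single library other than Sal 1 and Sal 3 (adjusted p 0.06498 to 0.129). HSPA8, the constitutive HSP70, had 1132 to 1911 CPM (median 1541) in Sal-exposed hearts and 653 to 939 CPM (median 791) in controls, separate ranges and a log2FC of 0.90 (SE 0.22) with an adjusted p of 0.0707. HSP90AA1, the inducible cytosolic HSP90, had 609 to 2242 CPM (median 1609.8) in Sal-exposed hearts and 634 to 965 CPM (median 781) in controls. Here too Sal 1 was below all controls and the other 5 were above them (log2FC 0.97, SE 0.30, adjusted p 0.155). FKBP4, an HSP90 co-chaperone, had 234 to 273 CPM (median 252) in Sal-exposed hearts and 173 to 199.6 CPM (median 183) in controls (log2FC 0.44, SE 0.14, adjusted p 0.164), with no overlap. The remaining members with an unadjusted p under 0.05 included the chaperonin subunits CCT2, CCT4, CCT6A, CCT8 and TCP1, with log2FC of 0.34 to 0.61. The list median of 0.35 was 0.20 with the span trend as a covariate, where HSPA2, HSPA8 and HSP90AA1 passed, and 0.22 without Sal 1. Over all genes tested 27 passed higher with that covariate.

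Related stress lists held no gene that passed in the main fit. At an unadjusted p under 0.05, 8.46% of all genes tested were higher and 8.43% lower. These lists too were chosen with earlier results known, so those shares are no independent baseline. In the list of the unfolded protein and integrated stress responses, 8 of 34 members were higher and 0 lower at that threshold. Of this list 5 were higher without control 4, and 2 lower without Sal 3 or 6. ATF4, the transcription factor of the integrated stress response, had 1099 to 2657 CPM (median 1512) in Sal-exposed hearts and 806 to 1113 CPM (median 980.0) in controls (log2FC 0.75, SE 0.25, adjusted p 0.176). HERPUD1, an endoplasmic reticulum stress gene, had 10.7 to 22.9 CPM (median 18.8) in Sal-exposed hearts and 7.89 to 13.04 CPM (median 10.03) in controls (log2FC 0.78, SE 0.21, adjusted p 0.106). SESN1, a p53 target that restrains growth signalling, had 371 to 712 CPM (median 510.1) in Sal-exposed hearts and 238 to 362 CPM (median 268) in controls (log2FC 0.87, SE 0.20, adjusted p 0.05898), with no overlap. The median of that list was 0.03, close to that of all genes tested. In the antioxidant list 7 of 54 were higher and 1 lower, with 4 higher without Sal 1, 12 without Sal 4 and 13 without control 3. Its median was 0.32 and, without Sal 1, 0.02. It was -0.05 with library size scaling, where the median of all genes was -0.21. With the span trend as a covariate it was -0.11, against -0.02 over all genes, and 5 members were higher and 8 lower. HMOX2, the constitutive heme oxygenase, had 71.1 to 180.0 CPM (median 94.6) in Sal-exposed hearts and 50.6 to 62.3 CPM (median 55.4) in controls (log2FC 0.96, SE 0.22, adjusted p 0.0527). SQSTM1, the autophagy receptor p62, had 278 to 819.8 CPM (median 451) in Sal-exposed hearts and 191 to 303 CPM (median 260.3) in controls (log2FC 0.91, SE 0.26, adjusted p 0.1303). Catalase, CAT, was the lower member, with 109.9 to 246 CPM (median 176) in Sal-exposed hearts and 229 to 358 CPM (median 282) in controls (log2FC -0.68, SE 0.22, adjusted p 0.174). The proteasome list had 11 of 33 higher and 0 lower, with 5 to 7 higher without Sal 1 or 5 or control 1, 2, 4, 5 or 6 and 17 without Sal 4, among them 5 of the ATPase subunits of the base. PSMC3, of this group, had 419 to 1748 CPM (median 537) in Sal-exposed hearts and 249 to 529.9 CPM (median 319.8) in controls (log2FC 1.1, SE 0.36, adjusted p 0.172), with Sal 1 far above the rest. The proteasome median was 0.62, 0.25 without Sal 1 (5 higher), and no more than 0.01 in size with the span trend as a covariate (1 higher and 1 lower).

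Among genes with a symbol, the largest falls outside the 3 lists were those of SHCBP1, CCDC18, MYBL1, CDKN3, GAS2L3 and HJURP. Several of these, and further falls named below, are known from dividing cells, so they lie outside the 3 lists by list membership alone. An identifier-only gene, ENSMGAG00000020624, fell further, with a log2FC of -2.92. SHCBP1, a midbody protein of cytokinesis, had 0.392 to 2.87 CPM (median 1.501) in Sal-exposed hearts and 8.48 to 16.4 CPM (median 13.2) in controls (log2FC -2.86, SE 0.44, adjusted p 0.00464), and its model overlaps another gene model. HJURP, the chaperone that places the centromeric histone CENP-A, had 2.09 to 3.11 CPM (median 3.01) in Sal-exposed hearts and 6.85 to 12.3 CPM (median 10.7) in controls (log2FC -1.73, SE 0.22, adjusted p 0.00157). MYBL1, a transcription factor of the MYB family, had 0 to 3.11 CPM (median 0.983) in Sal-exposed hearts and 5.48 to 10.4 CPM (median 8.17) in controls and no count in 1 Sal-exposed heart (log2FC -2.37, SE 0.49, adjusted p 0.0319). CDKN3 is a phosphatase acting on cyclin-dependent kinases, GAS2L3 a cytoskeletal linker of the midzone, WDHD1 a replication fork protein, UBE2T the ubiquitin-conjugating enzyme of the Fanconi anaemia pathway and G2E3 a ubiquitin ligase named for its G2/M expression. These 5 had log2FC of -2.05, -1.88, -1.72, -1.7 and -1.62 in this order, each with no overlap between groups. Further called genes, with their log2FC, were ATR, the replication stress kinase (-1.34), NCAPH2, a condensin II subunit (-1.15), POLN, a repair polymerase (-1.23), and SCLT1, a centriole distal appendage protein (-1.36). NCAPH2 also overlaps another gene model.

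MYLK, LAMB1, TLL1, CHRDL1, MEOX1, SH3PXD2A and OLFML1 are placed together for their roles, after their values were seen, and not as a list that was tested. Of them LAMB1 belongs to the matrix list and CHRDL1 to the list of TGF-beta, Wnt and BMP signalling. In whole tissue, fewer cells of a type and less RNA per cell cannot be told apart. MYLK (ENSMGAG00000012084, chromosome 7, 25184573 to 25310000), the myosin light chain kinase that drives smooth muscle contraction, had 107 to 285 CPM (median 201) in Sal-exposed hearts and 363 to 697 CPM (median 450.5) in controls. The ranges were separate, with a log2FC of -1.37 (SE 0.26) and an adjusted p of 0.0201. Of the fits without 1 library, the call was lost without Sal 2 or control 6 (adjusted p 0.0501 to 0.0611). It was also lost with the offset for genomic span (log2FC -1.09, edgeR adjusted p 0.0735). LAMB1 (ENSMGAG00000009954, chromosome 1, 10828191 to 10867593), the laminin beta 1 chain of basement membranes, had 125 to 292.5 CPM (median 212) in Sal-exposed hearts and 293.3 to 637 CPM (median 446) in controls, just separate. Its log2FC of -1.15 (SE 0.25) with an adjusted p of 0.0405 was lost without Sal 2, 3, 4 or 5 or control 1, 3, 4, 5 or 6 (adjusted p 0.0558 to 0.122). TLL1, a protease that matures procollagens, had 0.979 to 4.92 CPM (median 2.49) in Sal-exposed hearts and 5.38 to 12.9 CPM (median 9.22) in controls (log2FC -1.65, SE 0.34, adjusted p 0.0331). CHRDL1, a secreted antagonist of bone morphogenetic proteins, had 0.979 to 2.995 CPM (median 2.02) in Sal-exposed hearts and 3.11 to 9.84 CPM (median 6.002) in controls (log2FC -1.53, SE 0.33, adjusted p 0.0405). MEOX1, a homeobox factor of mesenchymal and fibroblast lineages, had 1.47 to 2.55 CPM (median 2.23) in Sal-exposed hearts and 4.45 to 8.69 CPM (median 5.95) in controls (log2FC -1.49, SE 0.25, adjusted p 0.00847) and stayed called without any single library. SH3PXD2A, a podosome scaffold, and OLFML1, a secreted olfactomedin-like protein, were lower at log2FC of -1.01 and -1.21, at the threshold (adjusted p 0.0496 and 0.0496).

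The other falls described here are those of BOD1L1, TPR, ANKRD12, EZH2 and LSS. BOD1L1, which protects stalled replication forks, had 7.64 to 34.3 CPM (median 19.6) in Sal-exposed hearts and 45.7 to 67.95 CPM (median 61.8) in controls (log2FC -1.46, SE 0.29, adjusted p 0.0259). TPR, a nuclear basket protein of the nuclear pore, had 38.97 to 78.2 CPM (median 49.1) in Sal-exposed hearts and 95.6 to 142 CPM (median 114) in controls (log2FC -1.11, SE 0.20, adjusted p 0.012) and stayed called without any single library. ANKRD12, an ankyrin repeat nuclear corepressor, had 7.25 to 30.8 CPM (median 15.1) in Sal-exposed hearts and 36.9 to 97.2 CPM (median 41.6) in controls (log2FC -1.58, SE 0.35, adjusted p 0.0496). Among Sal-exposed hearts BOD1L1 and ANKRD12 were lowest in Sal 1 and Sal 5. EZH2, the methyltransferase of Polycomb repressive complex 2, had 6.53 to 12.1 CPM (median 10.2) in Sal-exposed hearts and 16.9 to 25.8 CPM (median 19.7) in controls (log2FC -1.03, SE 0.19, adjusted p 0.0164), and was not called without Sal 2 or 5 or control 2 or 6 (adjusted p 0.0368 to 0.0522). With the offset for genomic span its log2FC was -0.73 (edgeR adjusted p 0.125) and with the span trend as a covariate -0.92 (adjusted p 0.0334), both short of a call. LSS, lanosterol synthase of the cholesterol pathway, had 1.798 to 3.77 CPM (median 2.22) in Sal-exposed hearts and 3.41 to 8.69 CPM (median 6.45) in controls (log2FC -1.29, SE 0.27, adjusted p 0.0369), an overlap of 1 control with the Sal-exposed range, and was the only member of 31 tested in the cholesterol and fatty acid synthesis list to pass. Of the 25 lower genes with a symbol, 6 stayed called without any single library, namely SHCBP1, CCDC18, HJURP, G2E3, MEOX1 and TPR. The other 19 were all lost without control 6, 18 without Sal 2 and 16 without Sal 5 or control 1, with adjusted p values up to 0.129, and 3 to 13 without each of the other libraries. With the offset for genomic span 16 of the 25 stayed called, with CHRDL1, LAMB1, EZH2, SH3PXD2A, TPR, OLFML1, POLN, ATR and MYLK lost. With the span trend as a covariate 14 stayed called, with GAS2L3, TLL1 and NCAPH2 lost besides CHRDL1, LAMB1, EZH2, SH3PXD2A, TPR, OLFML1, POLN and ATR. With library size scaling 8 stayed called. No named gene changed direction in any alternative among these 25.

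**Figure D3:**
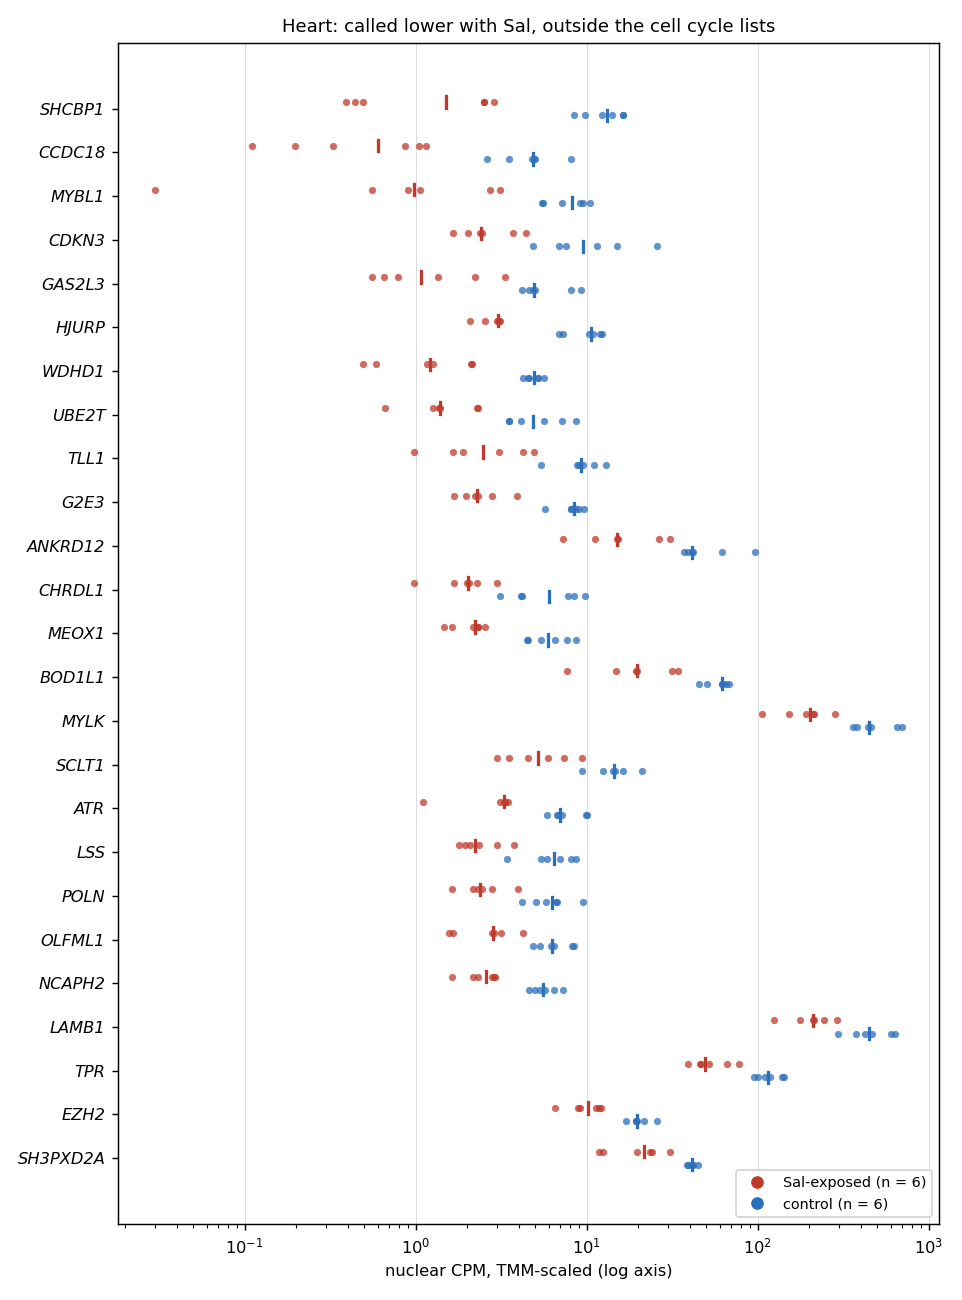
Levels of the 25 genes with a symbol called lower outside the 3 cell cycle lists, in TMM-scaled nuclear CPM on a log axis, ordered by log2FC, with 1 point per library and a bar at each group's median. The MYBL1 value at the left edge is a Sal-exposed heart with no count. The red and blue ranges are separate for all but LSS and SCLT1.

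The extracellular matrix list had the lowest median log2FC of the 28 lists outside the cell cycle. LAMB1 was the only one of 76 members to pass, but 29 were lower and 0 higher at an unadjusted p under 0.05, against 8.43% of all genes lower, and 65 of the 76 had a negative log2FC. The matrix list too was chosen with earlier results known, so the share of all genes is no independent baseline. The list median was -0.48. It was -0.60 to -0.35 without any single library, -0.30 with the span trend as a covariate (23 lower, 4 higher), -0.31 without Sal 1, Sal 5 and control 3, and -0.64 when only library size was used for scaling, where the median of all genes was -0.21. The chains of collagen VI, the beaded filament collagen around muscle cells, were among the 29. COL6A1 had 44.8 to 209 CPM (median 163) in Sal-exposed hearts and 221 to 599 CPM (median 384) in controls (log2FC -1.37, SE 0.35, adjusted p 0.0849). COL6A2 had 68.2 to 278 CPM (median 225) in Sal-exposed hearts and 334 to 747 CPM (median 522) in controls (log2FC -1.35, SE 0.33, adjusted p 0.0637). COL6A3 had 66.98 to 319 CPM (median 199.9) in Sal-exposed hearts and 362 to 967 CPM (median 521) in controls (log2FC -1.54, SE 0.38, adjusted p 0.0674). For all 3 chains the groups did not overlap. Of the basement membrane genes COL4A2, a collagen IV chain, had 117 to 531 CPM (median 307) in Sal-exposed hearts and 519 to 1015 CPM (median 903) in controls (log2FC -1.31, SE 0.34, adjusted p 0.0825). LAMA4, the endothelial laminin chain, had 114 to 253 CPM (median 177) in Sal-exposed hearts and 289 to 447 CPM (median 326) in controls (log2FC -0.95, SE 0.22, adjusted p 0.0542). NID2, nidogen 2, had 84.2 to 151 CPM (median 120.4) in Sal-exposed hearts and 168 to 258 CPM (median 197) in controls (log2FC -0.83, SE 0.20, adjusted p 0.0628). LAMA4 and NID2 did not overlap between groups, and 1 Sal-exposed value of COL4A2 was above the lowest control. Sal 1 and Sal 5, with a span trend of -0.39 each, were the lowest Sal-exposed hearts for LAMB1 and all 3 collagen VI chains. They were also the lowest for COL4A2, LAMA4 and NID2. COL6A1, for example, had 44.8 and 92.96 CPM in them. COL4A2 and NID2 overlap another gene model each. Elastin (ELN, -1.58), the crosslinking oxidase LOXL2 (-1.62), fibronectin (FN1, -1.18), perlecan (HSPG2, -0.82) and agrin (AGRN, -1.36) were further members with an unadjusted p under 0.05, here as log2FC. With the mitochondrial share as a covariate 18 members passed lower and 2 higher, and 8 passed lower without Sal 1. Over all genes tested 662 passed lower and 419 higher with that covariate, and 128 lower without Sal 1.

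Markers of the cells that make this matrix gave mixed values. Of 10 listed fibroblast markers 5 were in the deposited counts, LUM, DCN, PDGFRA, FBLN1 and DPT. The listed COL1A1, COL1A2 and COL3A1 were not. These 5 summed to 608 to 1281 CPM in Sal-exposed and 861 to 1426 CPM in control hearts (two-sided exact permutation p 0.2403, adjusted p 0.622, n = 6 each). None of the 5 had an unadjusted p under 0.05. The 8 smooth muscle and pericyte markers summed to 459 to 902 and 785 to 1200.2 CPM (exact permutation p 0.0909, adjusted p 0.455, n = 6 each). Among them MYH11, PDGFRB and ABCC9 had log2FC of -1.59, -1.28 and -0.66 at an unadjusted p under 0.05, while ACTA2, TAGLN and RGS5 had -0.15, 0.07 and 0.28. The 7 endothelial markers in the deposited counts, of 13 listed, summed to 778 to 1110.5 and 798 to 1029 CPM. None of these markers was at 0 in all hearts. None of the 20 library measures, marker sums included, passed an adjusted p of 0.05, the lowest being 0.455.

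Chromatin modifiers set where nucleosomes and their marks sit. Of the 83 tested EZH2 alone passed, a share near that of all genes passing lower, 0.901%. At an unadjusted p under 0.05, 12 including EZH2 were lower and 2 higher, 4 without Sal 6 or control 3, against 8.43% and 8.46% of all genes, and the median was -0.28. ATRX, a chromatin remodeler, had 35.6 to 66.2 CPM (median 40.8) in Sal-exposed hearts and 71.2 to 114 CPM (median 81.5) in controls (log2FC -0.87, SE 0.20, adjusted p 0.05898), and DNMT3A, a de novo DNA methyltransferase, had 8.23 to 50.5 CPM (median 41.97) in Sal-exposed hearts and 60.6 to 102 CPM (median 92.1) in controls (log2FC -1.25, SE 0.33, adjusted p 0.0897), both without overlap. DNMT3A was lowest in Sal 1 and Sal 5, at 8.23 and 29.8 CPM. The list median was -0.06 with the span trend as a covariate and -0.14 without Sal 1.

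**Figure D4:**
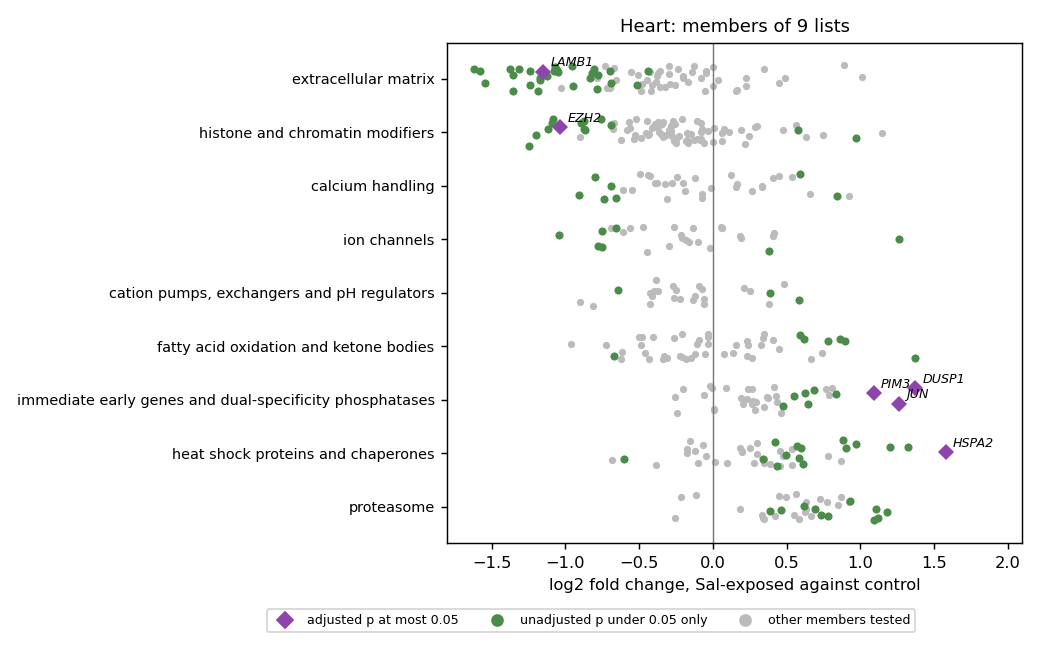
Log2 fold change (x axis) of every tested member of 9 lists, with 1 point per gene and random vertical spread. Purple diamonds passed the adjusted p, green points had an unadjusted p under 0.05 only, and grey points are the other members. The green points of the matrix list all lie below 0, and those of the immediate early and proteasome lists all lie above 0.

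The lists of ion transport and contraction, the functions nearest to the known action of an ionophore, had no tested member that passed in the main fit. With the mitochondrial share as a covariate, 5 ion channel, 3 calcium handling, 2 pump and 5 sarcomere genes passed lower. Higher in that fit were 1 calcium handling and 1 sarcomere gene, against 662 lower and 419 higher over all genes. With DESeq2, 3 ion channel and 2 sarcomere genes passed lower, 1 pump and 1 sarcomere gene higher. Over all genes these were 308 and 210. By symbol, the deposited counts held 31 of 77 listed ion channel genes and 27 of 55 pumps and exchangers. For calcium handling it was 35 of 56, and for the sarcomere and Z-disc 39 of 66. The other listed genes could not be tested. The counts of these lists at an unadjusted p under 0.05 were small and moved by over 1.5 times without single libraries. Over all genes tested the shares were 8.46% higher and 8.43% lower. In the list of cation pumps and exchangers 2 of 25 were higher and 1 lower, with 0 lower without Sal 6 and 2 without Sal 1, 2 or 3 or control 3 or 5. ATP1B1, a beta subunit of the sodium pump, had 265 to 287 CPM (median 268) in Sal-exposed hearts and 184 to 234 CPM (median 211) in controls (log2FC 0.38, SE 0.15, adjusted p 0.223), with no overlap. In the calcium handling list 2 of 35 were higher and 5 lower. The higher count was 1 without Sal 5 or control 1, 4 without Sal 4 or control 3 and 5 without Sal 3, the lower count 3 without control 4 or 6, and with the span trend as a covariate 3 were higher and 2 lower. ATP2A2, the calcium pump of the sarcoplasmic reticulum, had 1769 to 3348 CPM (median 2382) in Sal-exposed hearts and 2847 to 3465 CPM (median 3079) in controls (log2FC -0.33, SE 0.24, adjusted p 0.476). RYR2, the calcium release channel, had 196 to 830.2 CPM (median 539.7) in Sal-exposed hearts and 740.2 to 1155 CPM (median 1007) in controls (log2FC -0.90, SE 0.31, adjusted p 0.187). In Sal-exposed hearts its level was more spread than in controls, and it was lowest in Sal 1 and Sal 5 (196 and 334 CPM). In the ion channel list 2 of 28 were higher and 5 lower, with 1 higher without Sal 1, 2 or 5 or control 1, 2, 3 or 4. ABCC8, a regulatory subunit of ATP-sensitive potassium channels, had 39.95 to 88.1 CPM (median 71.1) in Sal-exposed hearts and 97.2 to 131 CPM (median 118) in controls (log2FC -0.75, SE 0.19, adjusted p 0.07701), with no overlap. In the sarcomere and Z-disc list 3 of 37 were higher and 5 lower. The higher count was 1 without control 1, 4 or 6 and 5 without Sal 2 or 6 or control 3, and the lower count 3 without Sal 5 or 6 or control 6. TCAP, the titin cap of the Z-disc, had 80.9 to 888 CPM (median 459.7) in Sal-exposed hearts and 41.4 to 187 CPM (median 127) in controls (log2FC 1.86, SE 0.56, adjusted p 0.142). Its Sal-exposed values were lowest in Sal 3 and Sal 4 with 80.9 and 89.3 CPM, the other 4 being at 421 CPM or more. The lowest control was control 2. These 3 are the libraries with a mitochondrial share over 80%. With the mitochondrial share as a covariate the log2FC was 1.75 (edgeR adjusted p 3.52e-04), but with the span trend as a covariate it was 0.48 (adjusted p 0.651). SYNM, synemin, an intermediate filament protein, had 1.18 to 27.5 CPM (median 10.1) in Sal-exposed hearts and 30.1 to 82.3 CPM (median 42.2) in controls (log2FC -1.84, SE 0.56, adjusted p 0.143). SYNM was lowest in Sal 1 and Sal 5, at 1.18 and 3.21 CPM. The myosin light chain MYL2 had 11621 to 108512 CPM (median 18363) in Sal-exposed hearts and 10129.8 to 38849.9 CPM (median 14108) in controls, with Sal 1 and control 3 far above their groups (log2FC 0.96, SE 0.60, adjusted p 0.405).

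Fatty acids are the main fuel of heart muscle. Of 47 genes of fatty acid oxidation and ketone bodies none passed, 6 were higher and 1, PDK4, lower at an unadjusted p under 0.05. Of all genes tested 8.46% were higher and 8.43% lower. HADHB, the beta subunit of the mitochondrial trifunctional protein, had 3337 to 8322 CPM (median 7315) in Sal-exposed hearts and 1714 to 3362 CPM (median 2407) in controls (log2FC 1.37, SE 0.32, adjusted p 0.05898). Sal 1, 2, 5 and 6 were at 7217 CPM or more, while Sal 3 was above the highest control and Sal 4 below it. ACAA2, the thiolase of the last step, had 1023 to 1642 CPM (median 1114) in Sal-exposed hearts and 554 to 741 CPM (median 647) in controls (log2FC 0.89, SE 0.21, adjusted p 0.05595), with no overlap. The list median was -0.05. The 1 lower became 0 without Sal 4 or control 1 or 6, 2 without Sal 5 or 6 or control 2, 3 without control 3, 4 without Sal 1, 5 without Sal 3 and 6 without Sal 2. With the mitochondrial share as a covariate 7 members passed, all higher, with 9 higher and 9 lower at an unadjusted p under 0.05. Of all 10318 genes tested in that fit 419 passed higher and 662 lower. At an unadjusted p under 0.05 these were 1540 and 1676. With the span trend as a covariate no member of the list passed, 3 members were higher and 3 lower, and the list median was -0.20. The 44 nuclear genes of oxidative phosphorylation had a median of 0.62 with 42 of 44 positive, yet only 3 were higher at an unadjusted p under 0.05 and none passed. The 3 became 0 without Sal 1 or control 1, 4, 5 or 6, 1 without control 2, 5 without Sal 4 and 25 without control 3. Over all genes tested 1263 were higher without control 3, against 873 in the main fit. With the span trend as a covariate 0 were higher and 4 lower.

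The lists with the highest medians hold short genes, such as the cytosolic ribosome list with a median span of 2543 bp. The median log2FC over all tested genes was lower at longer genomic span, from 0.27 in the 2064 genes of shortest span (median 2.22 kb) to -0.20 in the 2064 of longest span (median 55.2 kb). The 55 cytosolic ribosomal protein genes all had a positive log2FC, with a median of 0.86, but 1 had an unadjusted p under 0.05. Without Sal 1 the median was -0.05, and without control 3 it was 1.6 with 53 of 55 at an unadjusted p under 0.05. Over all genes tested, 873 (8.46%) were higher at that threshold in the main fit and 1263 without control 3. With the span trend as a covariate it was -0.26. RPSA, a small subunit protein, had 13846 CPM in Sal 1 and 6198 CPM in control 3, and at the group medians 2456 and 2097 CPM. The mitochondrial ribosome list (0.63, 0.21 without Sal 1, -0.01 with the covariate) and oxidative phosphorylation (0.62, -0.02, -0.22) moved in the same manner, as the plot of list medians shows. In these 3 lists and the proteasome list the median was lowest without Sal 1 and highest without control 3. The part of the span trend in these values was not tested further. The immediate early, chaperone and matrix lists kept the sign of their medians in these same fits.

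**Figure D5:**
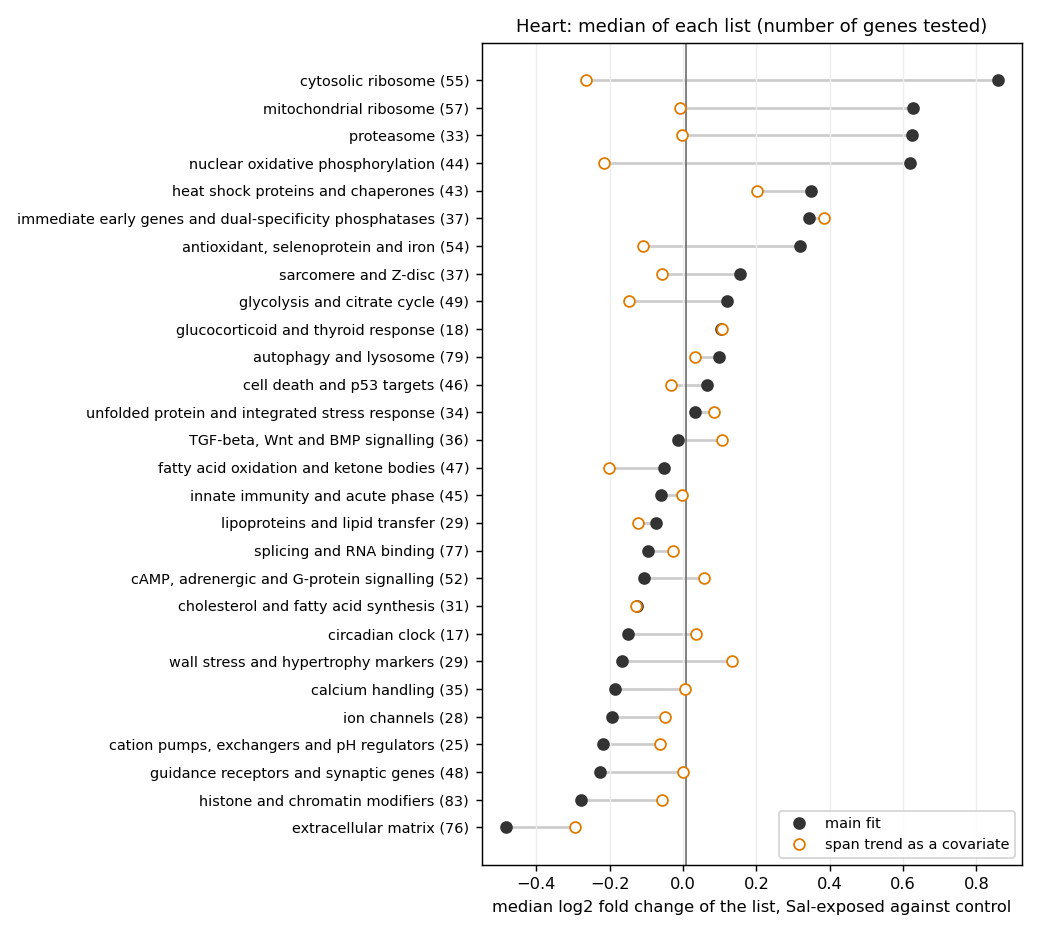
Median log2 fold change of the tested members of each of the 28 lists outside the cell cycle (x axis), with the number of genes tested in brackets. Filled points are the main fit, open points the fit with the span trend of each library as a covariate, and the vertical line is the median of all genes tested. The ribosomal, proteasome and oxidative phosphorylation medians move to or below the line, while those of the immediate early and chaperone lists stay above it and that of the matrix list stays below it.

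The cell cycle lists are given in brief. Of 61 mitosis and cytokinesis genes 36 passed, all lower, with a list median of -1.96 and none of the 61 above 0. Of 53 DNA replication genes 10 passed, all lower (median -0.42), and of 49 centrosome and cilium genes CNTRL, CEP290 and CEP135 passed, all lower (median -0.40). The share at the adjusted p alone, lower, was 0.901% of all genes tested. FOXM1, the transcription factor of G2/M genes, had 1.11 to 3.35 CPM (median 1.799) in Sal-exposed hearts and 9.14 to 18.9 CPM (median 12.4) in controls (log2FC -2.63, SE 0.29, adjusted p 7.67e-04), and MASTL, the Greatwall kinase of mitotic entry, had 1.31 to 2.38 CPM (median 1.51) in Sal-exposed hearts and 6.39 to 11.1 CPM (median 8.45) in controls (log2FC -2.17, SE 0.24, adjusted p 7.67e-04). RRM1 and RRM2, the subunits of ribonucleotide reductase, were called lower at log2FC of -1.06 and -2.4. SDHA, a reference gene in the turkey RT-qPCR of the study, had 2370.1 to 3037 CPM (median 2588) in Sal-exposed hearts and 1952 to 2849 CPM (median 2514) in controls (log2FC 0.09, SE 0.22, adjusted p 0.848).

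Whether the heart response differed from that of liver was tested for the 52 calls outside the cell cycle lists, as the tissue by treatment term of 1 edgeR fit. The fit used 23 libraries, without liver control 3, which the study excluded. Heart and liver came from the same birds, and this fit takes their libraries as independent. No source used here says which heart and liver library share a bird. The term was called for 27 of the 52, and for 15.9% of all 11126 genes, or 1767, which became 881 with liver control 3 included. The 52 were chosen by their heart values, which enter the term, so the share of all genes is no baseline for the 27. With heart and liver of the same group and number taken as 1 bird, 17 of the 27 stayed called (1019 over all genes), and of those with a symbol SYN3, JUN, LAMB1, MYLK, OLFML1, ATR, CHRDL1 and TLL1 were lost (edgeR adjusted p 0.0529 to 0.331). LCAT had 684 ± 168 CPM (SD, n = 6) in Sal-exposed and 843 ± 199 CPM (SD, n = 5) in control livers, and the effect in liver minus heart was -2.69 (SE 0.36, adjusted p 1.17e-04) on the log2 scale. APOA1 had 11776 ± 2897 CPM (SD, n = 6) in Sal-exposed and 21389 ± 7485 CPM (SD, n = 5) in control livers, lower with Sal (log2FC -0.86, adjusted p 0.0432), with a difference of -2.47 (SE 0.46, adjusted p 0.00167). DUSP1 and JUN rose in heart and had log2FC of -0.30 and -0.63 in liver, with differences of -1.64 (SE 0.27, adjusted p 6.65e-04) and -1.87 (SE 0.50, adjusted p 0.01295). ST7 had a liver log2FC of -0.98 (adjusted p 0.00336) and a difference of -2.01 (SE 0.25, adjusted p 5.09e-05). HSPA2 had a liver log2FC of 1.1 (adjusted p 0.0305), and no difference between tissues was shown (a difference of -0.45, SE 0.49, adjusted p 0.539). GYG2 had 42.3 ± 12.5 CPM (SD, n = 6) in Sal-exposed livers and no count in the 5 controls, so it was higher with Sal in both tissues, and its fitted difference of 3.77 depends on the prior count. Of the genes lower in heart, BOD1L1 and TPR were higher with Sal in liver (log2FC 1.48 and 0.68, adjusted p 8.57e-04 and 0.02695), with differences of 2.98 (SE 0.36, adjusted p 5.09e-05) and 1.83 (SE 0.27, adjusted p 2.68e-04), and MYLK and LAMB1 had differences of 1.93 (SE 0.50, adjusted p 0.0113) and 1.52 (SE 0.39, adjusted p 0.0112). For WDHD1, HJURP, G2E3, LSS and EZH2 the term was not called.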

How the data were processed

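The authors' deposited table holds RSEM estimated counts per gene (expected counts, stored as whole numbers), made with STAR and RSEM on Ensembl gene models of Turkey_5.1. Versions and strand use are not stated in the sources used here, so reads of overlapping models cannot be told apart. Of 36 library columns 12 matched no sample and were not used. The authors' deposited comparison table for heart was used for symbols and positions alone, and their fold changes and p-values were not used. RefSeq genes of the same assembly gave 3509 further symbols by overlap of at least 50% of both spans, and 3093 genes kept their identifier.

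Counts of the 16 mitochondrial genes were removed. After filterByExpr, 10318 of 11571 nuclear genes were tested with edgeR 4.0.16 (R 4.3.3) with TMM factors, robust quasi-likelihood fits, a prior count of 2 and Benjamini-Hochberg adjustment, 6 libraries against 6. All edgeR and exact permutation tests (SciPy 1.17.1) are two-sided. The fit was also run on counts simulated with means and dispersions taken from these heart libraries. Alternatives were 12 fits without 1 library each and 14 other settings, with DESeq2 1.42.0, sva 3.50.0 and limma 3.58.1, of which 3 were chosen after seeing the data, namely the span trend as a covariate and leaving out the 3 libraries with a TMM factor under 1 or the 3 with a mitochondrial share over 80%. A block for the bird in the tissue term was also added after seeing the data. Heart libraries came from separate birds, and the livers from the same birds. No 2 libraries of a group agreed within sampling noise.

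Named genes were the 14 largest falls and up to 14 largest rises among called genes with a symbol outside the 3 cell cycle lists. These had a mean of 1 CPM or more. The rule also took up to 4 members per list that passed or, where none did, its member with the highest level. The RT-qPCR genes and the 5 genes with a symbol and the most CPM completed it. A gene that this rule names is not reported here. Other names were chosen after their values were seen. Members, the 31 gene lists, the 16 marker lists and the tests were chosen with earlier results of these data known.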

Additional observations from a re-analysis of the deposited data

Results flagged for a closer look

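In 38 of 236 groups of 6 libraries examined the highest or lowest value was separated from the others by more than Dixon's 95% limit, where chance gives about 1 in 20. Most of these values came from the same libraries. Sal 1 was the highest Sal-exposed heart, in CPM, for MYL2 108512, ATF4 2657, PSMC5 2216, GPX3 15851, RPSA 13846, MRPL18 2497, RBFOX2 19813, CSRP3 12374, MYL3 121770.0, GAPDH 126184, EEF1A2 53378 and PSMC3 1748. Control 3 was the highest control for MYL2 38849.9, GPX3 7393, RPSA 6198, MRPL18 1154, RBFOX2 10743, CSRP3 8425, CDK1 57.5, MYL3 35990.4, GAPDH 35091 and PSMC3 529.9. These include sarcomere, glycolytic, ribosomal and proteasome genes, and the cell cycle kinase CDK1. The cardiomyocyte marker sum was 313669 CPM in Sal 1 and 119612 CPM in control 3, and the ventricular sum 230282 and 74842 CPM. All these levels were divided by the TMM factor, 0.42 in Sal 1 and 0.81 in control 3, which raises them. They are not plain shares of the nuclear counts. Sal 1 also had the lowest smooth muscle and pericyte sum, at 459 CPM, and control 3 the lowest span trend of the controls, at -0.20.

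Sal 4 had the highest Sal-exposed level of the cell cycle genes TPX2 (12.8 CPM), MCM6 (11.3 CPM) and CEP290 (3.35 CPM), and Sal 5 the lowest of ATR (1.11 CPM). Control 2 was the lowest control for CTSB (611 CPM), BMP4 (32.99 CPM) and the macrophage sum (362 CPM), and the highest for SYNM (82.3 CPM). Control 6 was the highest control for COL6A3 (967 CPM) and the enterocyte sum (111 CPM).

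For 20 of the named calls the tissue by treatment term was called in the edgeR interaction test, with heart and liver libraries taken as independent. With same-numbered heart and liver taken as 1 bird, SYN3, JUN, LAMB1, MYLK, OLFML1, ATR, CHRDL1 and TLL1 lost this call. Among genes higher in Sal-exposed hearts the liver effect minus the heart effect, in log2, was LCAT -2.69, APOA1 -2.47, SYN3 -3.62, DUSP1 -1.64, JUN -1.87 and ST7 -2.01. It was 3.77 for GYG2, which rose in both tissues and had no count in control livers, so that this value depends on the prior count. Among genes lower in Sal-exposed hearts it was TPR 1.83, LAMB1 1.52, OLFML1 1.99, POLN 2.98, ATR 1.6, MYLK 1.93, BOD1L1 2.98, CHRDL1 3.2, ANKRD12 2.25, TLL1 2.74, GAS2L3 2.32, MYBL1 3.52 and CCDC18 2.17. MYBL1, TLL1, CHRDL1 and OLFML1 also had no count in control livers, so their values depend on the prior count too. In Sal-exposed livers their means were 0.15, 0.13, 0.26 and 0.08 CPM, so liver held almost no RNA of these genes in either group. SYN3 and POLN rested on 48 and 23 counts over the 5 control livers, and SYN3 was not tested in the liver fit. Its level was 0.07 CPM in Sal-exposed and 0.68 CPM in control livers, the latter with an SD of 1.44.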

How the results depend on the processing

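The count of 101 calls in heart was 59 with scaling by library size alone (3 higher, and the median of all genes at -0.21), 313 with DESeq2 (22.7% of them higher, against 9.90%), 322 with DESeq2 and surrogate variables, 411 with limma-voom, 468 with the mitochondrial share as a covariate, 280 without the 3 libraries with a share over 80%, and 49 to 136 without 1 library. Counts at the adjusted p alone, 104 in the edgeR fit reported, were 59, 518, 1481, 1023, 1081, 331 and 49 to 157 in the same order. With the replicate block, for numbers that do not pair the birds (correlations of deviations -0.50 to 0.18, and 0 of 6 libraries closest to their own number), both counts were 30. The 1767 tissue differences became 1039 with library size scaling, 881 with liver control 3 included, 1109 with the replicate block and 1019 with the replicate block that takes same-numbered heart and liver as 1 bird, where deviations of the same number correlated at -0.39 to 0.19 and 2 of 11 livers were closest to the heart of their number. The calls were 97 to 102 with DESeq2 size factors, mitochondrial genes kept, either other filter or the span offset, with 82 of the 101 shared in the last. They were 119 with the span trend as a covariate (83 shared) and 102 without Sal 1, Sal 5 and control 3 (74 shared). Without single libraries the count of members at an unadjusted p under 0.05 moved by over 1.5 times, in at least 1 direction, in 27 of the 28 lists outside the cell cycle. Many of these counts were so small that a change of 1 member passes this limit. The higher count of all genes outside the 3 cell cycle lists passed it too, with 869 becoming 578 without control 6. The 27 are therefore no trait of the lists. The causes were not tested.

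None of the 48 called genes named changed sign in any of 26 alternatives, and 12 kept their call in all. The log2FC of uncalled genes that changed sign were, with the span trend as a covariate, MYL2 -0.25, ATP5F1B -0.43, PSMC5 -0.05599, RPSA -0.14, MRPL18 -0.20, RBFOX2 -0.75, CTSB -0.0387, CSRP3 -0.22, MYL3 -0.30, GAPDH -0.19, TNNT2 -0.0888, and with library size scaling, ATP5F1B -0.0253, RBFOX2 -0.44, CSRP3 -0.14, SDHA -0.15, and with DESeq2 with surrogate variables, ATP5F1B -0.0384, GPX3 -8.10e-04, RPSA -0.23, RBFOX2 -0.70, CSRP3 -0.22, SDHA -0.0135, MYL3 -0.34, and with limma-voom, ATP5F1B -0.00287, RBFOX2 -0.45, MYL3 -0.12, and with Sal 1, Sal 5 and control 3 left out, ATP5F1B -0.17, RBFOX2 -0.53, MYL3 -0.11, and with the replicate block, RBFOX2 -0.23, and with the mitochondrial share as a covariate, RBFOX2 -0.0303. Without single libraries these genes ranged as follows, in log2FC. ATP5F1B was at -0.0192 to 0.62. RPSA was at -0.0749 to 1.1. RBFOX2 was at -0.61 to 0.31. CSRP3 was at -0.15 to 0.45. MYL3 was at -0.18 to 1.33.

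The tissue differences of TMPRSS12, NCAPH2 and UBE2T, none called, ranged from -0.68 to 0.21, -0.16 to 0.71 and -0.16 to 0.37 without single libraries, and UBE2T was -0.0756 with DESeq2. Group differences (Sal-exposed minus control) in library measures ranged without single libraries from -2.43 to 5.296 percentage points of mitochondrial share, -1.099 to 0.691 M nuclear counts, -20.4 to 28.1 CPM of atrial markers, -422 to 41008 CPM of ventricular markers, -36.6 to 29.9 CPM of endothelial markers and -1.77 to 0.118 CPM of Schwann and neuron markers. In CPM without TMM the atrial and macrophage differences were -23.5 and -25.4. Nuclear depth limits genes near 1 CPM, which rest on few counts in the shallowest libraries.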

Other observations

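Signalling and structural lists not described above held few members with an unadjusted p under 0.05. For the lists of this and the next paragraph, the shares of all genes tested were 8.46% higher and 8.43% lower. The TGF-beta, Wnt and BMP list had 4 of 36 higher and 2 lower (median log2FC -0.01, 0.11 with the span trend as a covariate). Its passing member was CHRDL1, and next to it BMP4, a ligand that CHRDL1 binds, had 55.7 to 70.7 CPM (median 62.96) in Sal-exposed hearts and 32.99 to 44.6 CPM (median 41.5) in controls, with no overlap but an edgeR adjusted p of 0.05898 (log2FC 0.61). The list of guidance receptors and synaptic genes, which holds SYN3, had 2 of 48 higher and 4 lower (median log2FC -0.23, within 0.01 of 0 with the span trend as a covariate). The cAMP, adrenergic and G-protein list had 1 of 52 higher and 4 lower (median log2FC -0.11, 0.06 with the span trend as a covariate). The 4 lower are near the share of all genes, and with that covariate 4 were higher and 2 lower. They were AKAP6, AKAP11 and AKAP12, anchors of protein kinase A, and PDE5A, a cyclic GMP phosphodiesterase. Their log2FC in the main fit were -0.90, -1.2, -1.01 and -0.74. The wall stress and hypertrophy list had 2 of 29 higher and 2 lower (median log2FC -0.17, 0.13 with the span trend as a covariate).

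The innate immunity list had 3 of 45 higher and 0 lower (median log2FC -0.06, within 0.01 of 0 with the span trend as a covariate), the cell death and p53 list 2 of 46 higher and 2 lower (median log2FC 0.07, -0.03 with the span trend as a covariate), and the autophagy and lysosome list 6 of 79 higher and 2 lower (median log2FC 0.10, 0.03 with the span trend as a covariate). The splicing list had 6 of 77 higher and 4 lower (median log2FC -0.09, -0.03 with the span trend as a covariate), the circadian clock list 1 of 17 higher and 1 lower (median log2FC -0.15, 0.04 with the span trend as a covariate) and the glucocorticoid and thyroid list, which holds DUSP1, 2 of 18 higher and 2 lower (median log2FC 0.10, 0.11 with the span trend as a covariate). TEF, a clock output factor, had 111 to 198 CPM (median 134) in Sal-exposed hearts and 75.8 to 115 CPM (median 84.6) in controls (log2FC 0.67, edgeR adjusted p 0.0944). Apart from CHRDL1, SYN3 and DUSP1, no member of the lists in this and the preceding paragraph passed.

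Marker sums of other cell types ranged, in Sal-exposed and then control hearts, over 91.3 to 334 and 184 to 254 CPM for atrial, 23129 to 230282 and 21152 to 74842 CPM for ventricular, 1.96 to 15.5 and 2.32 to 8.74 CPM for skeletal muscle, 31.4 to 115 and 51.7 to 95.6 CPM for epicardial and mesothelial, 453 to 623 and 362 to 505 CPM for macrophage and myeloid, 18.4 to 50.4 and 24.6 to 42.3 CPM for lymphocyte, 39.95 to 158 and 109 to 152 CPM for erythroid, 27.03 to 68 and 46.2 to 72.95 CPM for thrombocyte, 189 to 319.9 and 207 to 362 CPM for adipocyte, 6.27 to 15.02 and 7.89 to 16.3 CPM for Schwann and neuron and 2.45 to 66.8 and 11.95 to 111 CPM for enterocyte markers. CTSS and CDX2 had no count in any heart. These sums cover only the listed markers found in the deposited counts, so they do not measure a cell type as a whole. Skeletal muscle rests on TNNC2 alone, 1 of 19 listed, and erythroid on ANK1, EPB42 and RHAG, 3 of 19, with no globin. Atrial rests on 3 of 10, ventricular on 3 of 8, Schwann and neuron on 4 of 14, and epicardial and mesothelial on 4 of 10.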
